A study of Mus musculus with 12 samples.

Results

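The regions described here are the 22 ESRRB-bound regions of the Foxd3 locus, out of 86201 regions in the deposited count table. A region was taken when it lay on chromosome 4 (mm10), its nearest protein-coding gene was Foxd3, and its centre fell inside the gene or within 100 kb of it. The assay was ChIP-seq (chromatin immunoprecipitation followed by sequencing), in which an antibody pulls down the DNA that a protein sits on and the reads in a region count how often it was recovered. The locus was picked out because a region near Foxd3 was already known to differ with Nanog in these libraries, so the differences at its regions are given as a description, with no p-value, and nothing is supported with them.

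Mouse embryonic stem cells of 2 lines were compared, both grown in serum with leukaemia inhibitory factor and left untreated. The titles call them NanogKO:Esrrb (44J), here "without Nanog", and NanogKO:Esrrb:Nanog (44JN), here "with Nanog". Both therefore share the Nanog deletion and ESRRB, and the second carries Nanog in addition, while the cell line field reads N{delta}:cE:iN for every sample. The labels do not say how Nanog was supplied, whether a line is 1 clone, or whether libraries came from separate cultures. Fixation was by formaldehyde, in some samples after a second crosslinker, and which had it is not stated. Each line had 3 ESRRB libraries, called A, B and C in the table, and ChIP signal does not check the Nanog labels. The spread between libraries may be technical.

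FOXD3 is a forkhead transcription factor that opens and represses enhancers. It is needed to maintain the epiblast and embryonic stem cells, takes part in the passage from the naive to the primed state, and later specifies neural crest. ESRRB is an orphan nuclear receptor that binds an extended half-site as a single molecule and sustains naive self-renewal, and NANOG is a homeodomain factor of the same network that activates Esrrb. Transcription factors of this network often occupy several distal elements around one gene, so a locus is described here element by element.

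Foxd3 lies at chr4:99656299-99658671 (RefSeq, GRCm38.p6, the assembly that mm10 names) on the plus strand, 359.0 kb from Atg4c on its upstream side and 56.9 kb from Alg6 downstream. Its 22 regions ran over 116.2 kb, from 99559490 to 99675685, with 14 upstream, 1 inside the gene and 7 downstream. Distances upstream are to the gene's start and distances downstream to its end. Within 20 kb of the gene lay 16 of them, over 39.8 kb. Of the 22, 18 overlapped no RefSeq gene, those 94.6 and 96.7 kb upstream lay in the long non-coding RNA gene Gm40211, and 2 overlapped Foxd3. Genes with any region within 100 kb had a median of 3 regions, and 295 of 16052 such genes had more than Foxd3. Widths ran from 40 to 1273 bp with a median of 587.5 bp, against 346 bp over all regions. The region just inside the distance limit, 96.7 kb upstream, held 5.70 ± 0.56 CPM without and 5.64 ± 1.8 CPM with Nanog (SD, n = 3 per line, as throughout). The next one outward, 208.3 kb away and assigned to Atg4c, held 11.3 ± 4.0 and 4.60 ± 1.1 CPM. Downstream the limit was set by Alg6, the gene nearest to the next region, which held 7.92 ± 3.0 and 8.91 ± 0.51 CPM.

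One region covered the start of Foxd3, and its sequence just before the start is shown because it is the promoter that the distal regions would be set against. The region ran from 99655452 to 99656434 and held all 250 bases printed. They are from RefSeq (GRCm38.p6, plus strand), chr4:99656049-99656298, with motif matches in capitals.

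Foxd3 promoter: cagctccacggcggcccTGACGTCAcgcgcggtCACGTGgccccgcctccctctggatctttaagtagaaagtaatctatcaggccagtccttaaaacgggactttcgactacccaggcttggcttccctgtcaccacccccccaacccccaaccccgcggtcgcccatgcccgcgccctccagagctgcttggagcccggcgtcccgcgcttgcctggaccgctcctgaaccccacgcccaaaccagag

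Both strands were searched for 7 motifs. The ESRRB element TCAAGGTCA, its shorter forms AAGGTCA and AGGTCA (each contained in the one before), the forkhead motif TGTTTAC and the octamer ATGCAAAT had no match in this window. They were found in 0.387%, 4.08%, 14.0%, 3.17% and 1.60% of 32851 RefSeq promoter windows of the same length. The cyclic AMP element TGACGTCA matched once, from position -233 relative to the start, and the E-box CACGTG once, from position -217, against 1.55% and 6.02% of windows. The window was 65.6% G and C, against a median of 52.4%, and held 21 CpG dinucleotides, against a median of 6. These letters describe the window and say nothing of which factor sat there. Sequences of the distal regions were not analysed here.

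For its width, the promoter region held little ESRRB signal. Libraries A, B and C without Nanog were at 13.0, 9.54 and 12.7 CPM (counts scaled to the library's reads in regions with TMM factors), and those with Nanog at 16.9, 16.7 and 16.2 CPM. The groups did not overlap, but the log2 fold change of 0.50 ± 0.19 (SE) did not meet the call threshold. Here and for all fold changes, the SE is the absolute log2 fold change divided by the square root of the edgeR F statistic. The threshold is an adjusted p under 0.05 over all regions tested. It was met with column totals, with a mean count of at least 50 and with a block by column letter. Per kb of width, signal here was 12.0 CPM without and 16.9 CPM with Nanog, the rank 21 of 22 in both lines. The width of each of the 22 regions is that of its peak in the deposited list with Nanog. All values and ranks per kb, also those without Nanog, rest on these widths. The region inside the gene, at 99656933 to 99657192, held 4.01 ± 0.42 and 4.08 ± 0.30 CPM, with overlapping libraries.

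Signal in the locus stood in elements on both sides of the gene. Without Nanog, 3 regions led. The first, 10.5 kb downstream at 99668650 to 99669706, had 46.6, 61.4 and 45.1 CPM in libraries A, B and C. The region 1.4 kb upstream, at 99654479 to 99655354, had 33.2, 37.3 and 39.8 CPM. That 5.9 kb upstream, at 99649932 to 99650952, had 38.4, 28.0 and 31.2 CPM. The libraries of the second and the third of these overlapped each other, so their order is not settled by the spread, while every library of the first lay above every library of the other two. Per kb, these 3 held 48.3, 42.0 and 31.9 CPM.

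**Figure D1:**
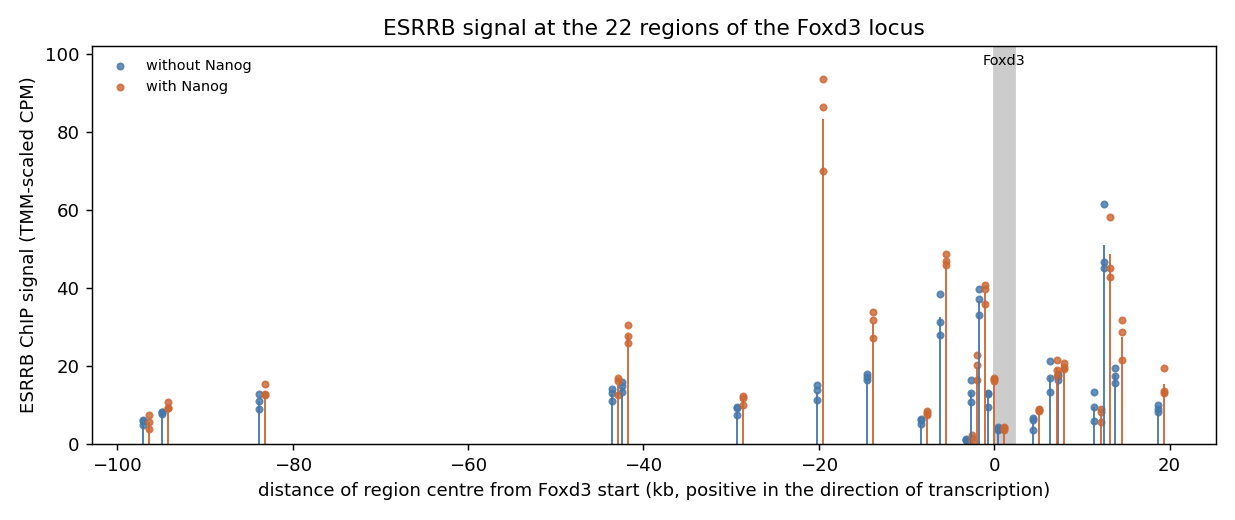
ESRRB signal in TMM-scaled CPM (vertical axis) at the 22 regions of the Foxd3 locus, by distance of the region's centre from the Foxd3 start in kb (horizontal axis). Points are the 3 libraries of each line, vertical lines rise to their mean, the grey band is the gene, and the region 19.8 kb upstream stands at 83.3 CPM with Nanog against 13.4 CPM without.

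With Nanog the leading region was another one, 19.8 kb upstream at chr4:99635842-99637114, the widest of the locus. Its libraries A, B and C held 13.8, 15.1 and 11.4 CPM without Nanog (37, 54 and 58 reads), and 70.0, 93.5 and 86.4 CPM with Nanog (480, 793 and 678 reads). Every library with Nanog stood far above every library without, and the spread within a line was small beside the gap. Means were 13.4 ± 1.9 and 83.3 ± 12.1 CPM, a log2 fold change of 2.65 ± 0.15, or 6.29-fold. Its mean rank in the locus was 10 of 22 without and 1 of 22 with Nanog. Per kb it went from rank 22 of 22, at 10.6 CPM, to rank 1, at 65.4 CPM. Its width, like all widths of the locus, is that of the peak in the list with Nanog.

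Among all 84892 regions tested, this region stood above 75.9% in mean CPM without Nanog and above 99.3% with Nanog. There were 77 regions with a larger fitted fold change, its rank being 78. Of the 565 regions whose mean CPM with Nanog was at least as high, it had rank 1 in fold change. These ranks describe a region singled out for its difference. It took 4.39%, 4.39% and 3.61% of the reads of the locus in libraries A, B and C without Nanog (95% exact Clopper-Pearson intervals of 3.11% to 6.0%, 3.31% to 5.69% and 2.76% to 4.65%). With Nanog it took 15.5%, 18.0% and 18.2% (14.3% to 16.9%, 16.9% to 19.2% and 17.0% to 19.5%). The intervals cover counting error alone and not the spread between libraries, so no comparison of the lines is drawn from them. ChIP of a bulk culture cannot tell more cells with ESRRB at a site from more ESRRB per cell.

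**Figure D2:**
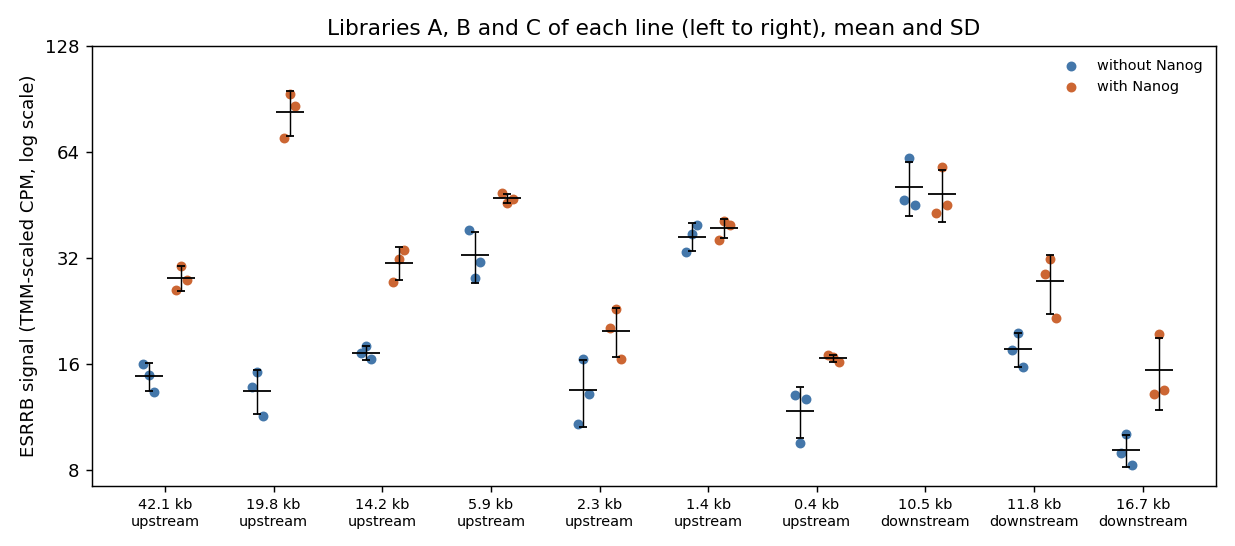
ESRRB signal in TMM-scaled CPM on a log axis at 10 regions of the Foxd3 locus, named by distance from the gene. Points are libraries A, B and C from left to right, bars are the mean and SD of the 3, and the lines are apart at 19.8 kb upstream (13.4 against 83.3 CPM) and overlap at 1.4 kb upstream and 10.5 kb downstream.

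The other regions differed less, and none met the threshold in the lower direction. Of 21 regions tested, 7 met it as higher, against a background of 9.42% of all regions tested. As lower, 0 met it by edgeR, DESeq2 or limma-voom, against a background of 9.78% by edgeR. At an unadjusted edgeR p under 0.05, 9 were higher and 0 lower, and the share of all regions at that level is not given here. Since the locus was chosen on this contrast, nothing is read from these shares or counts. The count of 7 was 4 without library B with Nanog and 4 without library C without Nanog. All 3 libraries with Nanog lay above all 3 without at 13 of the 21, against 17.0% of all regions tested, and below at 0 of the 21, against 16.8%. The one region not tested, a strip of 40 bp 2.8 kb upstream, held 3 to 5 reads without and 6 to 19 with Nanog and was removed for low counts. Fitted log2 fold changes were above 0 at 18 of the 21, with a median of 0.36, against -0.01 over all regions. TMM scales each library by its reads in these same regions, so a difference shared by most regions would be removed. The value of -0.01 is therefore no measure of overall ESRRB signal, and higher or lower is relative to most regions.

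The next largest difference was 42.1 kb upstream, at 99613661 to 99614651. Libraries A, B and C held 16.0, 14.9 and 13.3 CPM without and 26.0, 30.4 and 27.6 CPM with Nanog, a log2 fold change of 0.94 ± 0.17. The groups did not overlap. Its neighbour 43.3 kb upstream, at 99612702 to 99613350, held 13.0, 14.0 and 11.2 CPM without and 12.5, 16.9 and 16.3 CPM with Nanog, and there they did. These 2 regions lie side by side, and the fold change of the neighbour was 0.28 ± 0.20. Whether they differ from each other was not tested. Closer in, at 99641880 to 99642373, 14.2 kb upstream, libraries held 17.2, 18.0 and 16.5 CPM without and 27.3, 31.8 and 33.8 CPM with Nanog. This gave 0.85 ± 0.16, and 0.67 when libraries were thinned to equal totals.

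The region 5.9 kb upstream, among the strongest of the locus in both lines, held 48.8, 45.9 and 47.0 CPM with Nanog, above all 3 values without, for a log2 fold change of 0.55 ± 0.14. These 4 upstream regions, 5.9, 14.2, 19.8 and 42.1 kb away, met the threshold in all 14 alternative fits. The fifth, 2.3 kb upstream at 99653566 to 99654349, held 10.8, 16.5 and 13.1 CPM without and 20.3, 22.9 and 16.6 CPM with Nanog. Its libraries all but touched, and its call (0.55 ± 0.19) was lost with DESeq2, after thinning, and without library A or C without Nanog or A or B with Nanog.

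Downstream, 2 regions met the threshold. That 11.8 kb away, at 99670113 to 99670836, held 17.5, 19.6 and 15.7 CPM without and 28.9, 31.8 and 21.7 CPM with Nanog (0.65 ± 0.17). The farthest, 16.7 kb away at 99675057 to 99675685, held 8.95, 10.1 and 8.24 CPM without and 13.1, 19.5 and 13.5 CPM with Nanog (0.77 ± 0.22). The groups were apart at both, but both calls were lost without library C without Nanog and without library B with Nanog, where the fold changes were as low as 0.53 and 0.56.

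The strongest downstream element, which led the locus without Nanog, had overlapping libraries. At 10.5 kb downstream the libraries with Nanog held 42.9, 58.1 and 45.1 CPM, overlapping those without, and the log2 fold change was -0.06 ± 0.14. In both lines library B was the highest there. The region 1.4 kb upstream was alike in this, with 36.0, 40.7 and 39.8 CPM with Nanog and a fold change of 0.07 ± 0.13, and its libraries overlapped between the lines. The remaining regions, tested and not called, ran from -0.34 at 9.4 kb downstream to 0.63 at 2.4 kb downstream. The latter was called with a block by column letter and without library B without Nanog. Standard errors over the locus ran from 0.13 to 0.28.

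Summed over the 22 regions, the 3 libraries without Nanog held 314, 345 and 315 CPM and those with Nanog 451, 519 and 475 CPM. Every library with Nanog was above every library without. Means were 325 ± 18 and 482 ± 35 CPM, a log2 ratio of 0.57. Without the region 19.8 kb upstream the sums were 311 ± 16 and 398 ± 24 CPM, a log2 ratio of 0.36. The 14 upstream regions went from 193 ± 2.1 to 330 ± 20 CPM, and from 180 ± 2.4 to 247 ± 8.1 CPM without the one at 19.8 kb. The 7 downstream regions held 127 ± 19 and 147 ± 18 CPM, with a median log2 fold change of 0.21 against 0.46 upstream.

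The deposited peak lists, 1 per line and so without replicate error, place all 22 regions in the list with Nanog and 8 in the list without, counting from 1 bp of overlap. The list with Nanog has 85537 peaks and the list without 34956, against 86201 regions in the count table. The share of all regions in the list with Nanog is not given here, so the count of 22 is not read as a trait of this locus. The share of 36.4% in the list without Nanog is near that of all regions, 38.6%. The list without Nanog has no peak at 19.8 kb upstream. Of the 7 regions called higher, 3 had a peak in both lists, 5.9 and 14.2 kb upstream and 11.8 kb downstream. The 8 regions in both lists held 8.06 to 51.0 CPM without Nanog, with a median of 17.5 CPM. The 14 others held 1.17 to 17.2 CPM, with a median of 9.35 CPM. Those in both lists were thus higher at the median, but the ranges overlapped. In those 8, peaks covered 5601 bp with and 3231 bp without Nanog. The libraries with Nanog were deeper, 6689166 to 8382646 reads in regions against 2734338 to 5193707, and the part of depth in the lists was not tested.

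The neighbourhood was looked at to see whether the surrounding megabase moved too. Of the 92 other regions with centres within 1 Mb of Foxd3, 14 were higher and 12 lower with Nanog (edgeR, Benjamini-Hochberg adjusted p under 0.05). Over all regions tested, 9.42% were higher and 9.78% lower. The median log2 fold change of the 92 was 0.01, and whether their calls differ from the background was not tested. Without library C of either line 8 were higher, and without any single library other than C without Nanog 5 to 7 were lower. Alg6, a glucosyltransferase gene of glycoprotein synthesis and the next gene downstream, had 5 regions with log2 fold changes from -0.31 to 0.38. Of these 0 were called by edgeR, 0 by DESeq2 and 0 by limma-voom, and 0 had an unadjusted p under 0.05. Atg4c, an autophagy protease gene and the next one upstream, had 2 higher and 1 lower among 12. The largest fold change of the 92 was inside Kank4, at 98782109 to 98782693, whose position relative to the Foxd3 start is -873.9 kb. It rose from 7.37 ± 1.6 to 21.5 ± 3.7 CPM, 1.58 ± 0.22 (edgeR, Benjamini-Hochberg adjusted p = 5.21e-06). Input libraries were not analysed here, and these neighbours are ESRRB regions of the same count table, so local background was not measured.

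**Figure D3:**
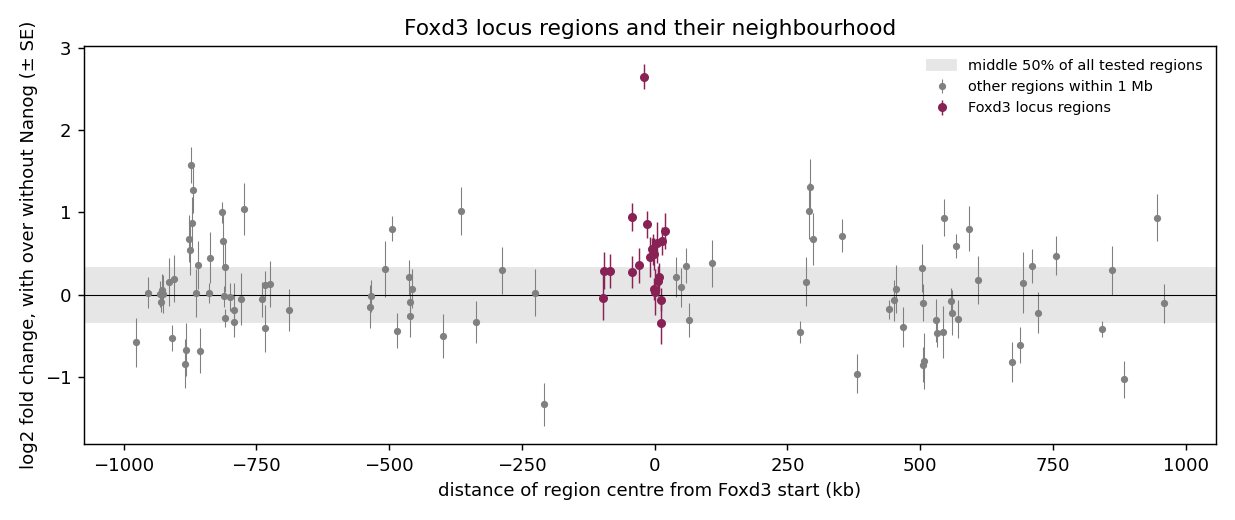
Log2 fold change of ESRRB signal, with over without Nanog (vertical axis, bars are SE), by distance from the Foxd3 start in kb for the 21 tested Foxd3 regions and 92 other regions within 1 Mb. The grey band is the middle 50% of all tested regions, -0.33 to 0.32, and the region 19.8 kb upstream lies at 2.65, above the other regions drawn.

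The same rule of distance was applied to 3 other loci of the naive network. Esrrb had 33 tested regions, 9 higher and 0 lower. Zfp42, a naive marker also called Rex1, had 18 with 8 higher and 1 lower. Klf4, a naive zinc-finger factor, had 21 with 7 higher and 0 lower. The shares over all regions tested were 9.42% higher and 9.78% lower. Median log2 fold changes were 0.53, 0.57 and 0.25, against 0.36 at Foxd3, and the largest were 1.78, 1.10 and 1.20, against 2.65. Of 1909 genes with at least 10 tested regions, 125 had a higher median, 73 a larger share of higher calls and 27 a larger maximum than Foxd3. Foxd3 was chosen for its difference, so these differences between loci were not tested.

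Which region counts as the strongest of Foxd3 depends on the average. From reads pooled over the 6 libraries, which weights the deeper ones with Nanog, it is the one 19.8 kb upstream, and by the unweighted mean of log-CPM it is the one 10.5 kb downstream. The profile of the first over the 6 libraries, centred on its mean log-CPM, was closest to the strongest regions of Lonrf2, Luc7l3, Nudcd2, Psmf1 and Dop1a. Their Euclidean distances were 0.32 to 0.54 log2 units, over 16015 other genes. All were weaker, from 5.42 ± 1.1 CPM with Nanog at Psmf1, a proteasome inhibitor gene, to 39.9 ± 2.0 at Nudcd2. Lonrf2 went from 2.47 ± 0.30 to 16.6 ± 2.4 CPM on chromosome 1. The profile of the second was closest to Fmn1, Gpr4, Nprl3, Gm1322 and Defa38, at 0.14 to 0.17 log2 units, with log2 fold changes from -0.09 to 0.03. Likeness over 6 libraries mostly repeats the difference between the lines and was not tested.

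The other genes of the network were read at their strongest region within 100 kb, as described for Foxd3 with pooled reads. Over all 16016 genes, 10.4% of strongest regions were higher and 14.1% lower, with a median log2 fold change of -0.04. Forkhead genes other than Foxd3, 40 of 43 with a tested region, had 6 higher and 7 lower calls and a median of -0.01. The increases were led by Foxc1, a mesodermal forkhead factor, from 5.50 ± 1.1 to 15.6 ± 3.2 CPM (edgeR, Benjamini-Hochberg adjusted p = 4.02e-05), followed by Foxj3, Foxn3 and Foxo6. Foxo6 lost its call without library C with Nanog. Among the decreases, Foxa2, an endoderm pioneer factor, fell from 39.0 ± 6.9 to 19.7 ± 1.2 CPM (edgeR, Benjamini-Hochberg adjusted p = 3.3e-05). Foxo1, an effector of insulin and AKT signalling, fell from 105 ± 10.2 to 64.6 ± 7.2 CPM, and Foxp4 and Foxq1 fell by 0.64 and 0.60 on the log2 scale. The forkhead family did not move one way.

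**Figure D4:**
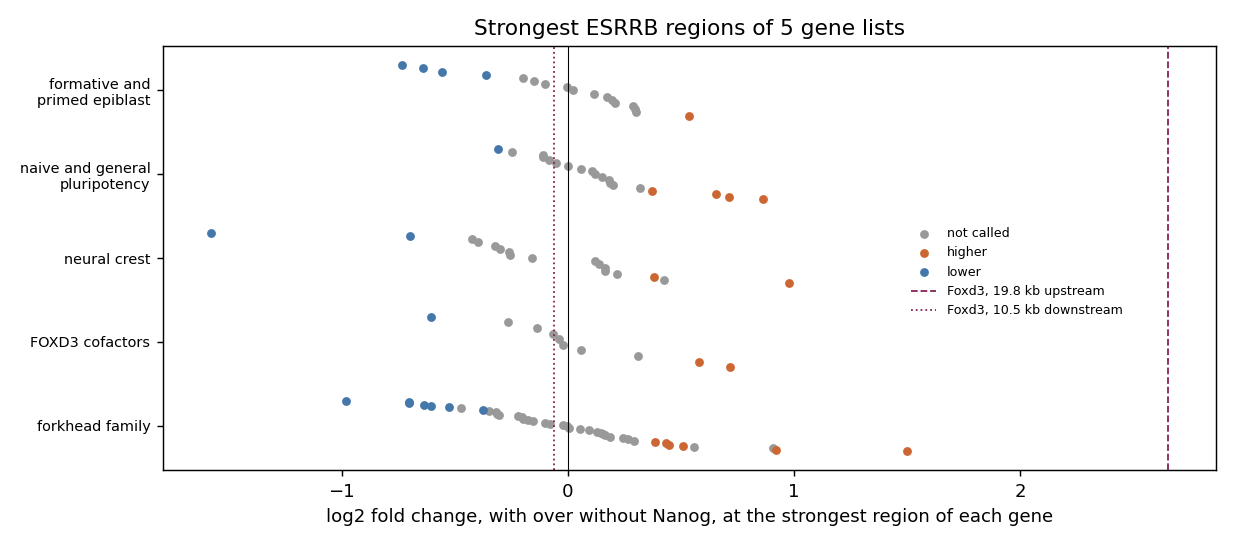
Log2 fold change of ESRRB signal, with over without Nanog (horizontal axis), at the strongest region of each gene in 5 lists (rows), 1 point per gene, coloured by whether it was called higher, lower or not called. The dashed line is the Foxd3 region 19.8 kb upstream at 2.65 and the dotted line the one 10.5 kb downstream at -0.06.

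Formative and primed epiblast genes, the state in which FOXD3 acts on exit from naive pluripotency, had 1 higher and 4 lower calls among 17 and a median of 0.02. Tcf7l1, a repressor of the WNT pathway, rose from 23.8 ± 3.5 to 34.7 ± 0.65 CPM, a call lost without library A without Nanog. Of the 25 tested regions of Tcf7l1, 5 were higher and 3 lower. Pou3f1, a POU factor of the epiblast, fell by 0.73 on the log2 scale, Dnmt3a, a DNA methyltransferase, fell by 0.56, and Tcf15, a basic helix-loop-helix factor, fell by 0.64, each called in all 14 alternatives. Grhl2, an epithelial enhancer activator, fell from 78.1 ± 16.0 to 60.9 ± 6.9 CPM, and kept its call in 5 of 14 alternatives, losing it without each library but B without Nanog. The strongest region of Otx2 was not called, with 73.4 ± 13.2 and 68.9 ± 2.7 CPM. Among all 21 tested regions of Otx2, 1 was higher and 5 lower.

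Naive and general pluripotency genes had 4 higher and 1 lower call among 19, with a median of 0.12. The strongest region of Klf4, at 55474919 to 55476599 on chromosome 4, rose from 93.1 ± 15.2 to 146 ± 1.1 CPM (edgeR, Benjamini-Hochberg adjusted p = 5.39e-05). Tcl1, an AKT coactivator, was also higher in all 14 alternatives. Nanog and Stat3 were called higher and Klf5 lower, each in 8 or fewer of the alternatives. Nanog and Klf5 lost the call without any library but B without Nanog, and Stat3 without B or C without Nanog and without A or C with Nanog. The strongest regions of Esrrb, Pou5f1 and Sox2 were not called, at 0.06, 0.19 and -0.25. Among all tested regions of these genes, Esrrb had 9 of 33 higher and 0 lower. Pou5f1 had 4 of 9 higher and 0 lower, and Sox2 had 0 of 31 higher and 3 lower. Tcl1 had 2 of 8 higher and 3 lower, and Stat3 1 of 6 higher and 2 lower. Over all regions tested, the shares were 9.42% higher and 9.78% lower.

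Neural crest genes, a later field of FOXD3, had 2 higher and 2 lower calls among 17 with a tested region, and a median of -0.16. Sox9, an HMG-box factor of crest and cartilage, fell from 37.8 ± 6.5 to 12.8 ± 0.87 CPM 53.7 kb from the gene (edgeR, Benjamini-Hochberg adjusted p = 5.25e-08). Tfap2b was called lower, a call lost without library B with Nanog and without C without Nanog. Twist1 and Mitf were called higher, and lost it without any library but A without Nanog for Twist1 and B without Nanog for Mitf. Of the 18 tested regions of Mitf, 4 were higher and 4 lower. Known cofactors of FOXD3 and chromatin partners had 2 higher and 1 lower call among 10, with a median of -0.03. Hdac2, a histone deacetylase, rose from 19.0 ± 2.2 to 31.6 ± 1.1 CPM, and Tle3, a Groucho corepressor, fell from 77.6 ± 11.0 to 51.2 ± 8.0 CPM. Kdm1a, a histone demethylase, held 12.3 ± 2.4 and 18.6 ± 1.7 CPM, and its higher call was lost without any library but C without Nanog. By the unweighted mean the naive list had 3 higher and 2 lower calls and the other 4 lists the same counts as above, against 9.19% and 14.7% of genes. Over the 5 lists 15 strongest regions were higher and 15 lower. Without library C with Nanog 7 were higher, without A without Nanog 9 were higher, and without B with Nanog 9 were lower.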

How the data were processed

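The deposited table holds raw read counts per region for the 6 ESRRB ChIP libraries, unnormalised, as its values show. The submitters' processing notes name Bowtie2, MACS2, bedtools 2.26.0, SAMtools 1.4.1 and mm10. Peak threshold, counter and duplicate removal are unknown here. Each column carries a line code and a letter, which tie it to a line but to no numbered sample. The 6 input libraries were not analysed here. No 2 libraries of the same line were duplicates (chi-square per degree of freedom 1.33 to 2.53).

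After filterByExpr, 84892 regions were fitted with edgeR 4.0.16 (TMM, glmQLFTest, line alone) in R 4.3.3, adjusted by Benjamini-Hochberg over all of them. The pipeline was tested on simulated data with the same spread in every region, unlike real libraries, and the outcome is not given here. The 14 alternatives were column totals and DESeq2 size factors as scalings, DESeq2 1.42.0, limma-voom (limma 3.58.1), 2 other filters, thinning, a letter block and each library left out. Regions went to the nearest of 21900 protein-coding genes of RefSeq GRCm38.p6. A gene's strongest region had the highest log-CPM of pooled reads (prior count 2), with the unweighted mean an alternative added after seeing the data, and coordinates are 1-based.

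The locus, its 5 lists and the alternatives were chosen with earlier results of these data known. Named genes were all Foxd3 regions, both neighbouring genes, the 5 most alike genes, up to 4 called genes per list and direction by adjusted p, and Esrrb, Nanog, Pou5f1, Sox2, Otx2 and Pou3f1. Kank4 was named after its value was seen.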

Additional observations from a re-analysis of the deposited data

How the results depend on the processing

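At the 21 tested Foxd3 regions, 284 of 288 values stayed within 1 SD of the libraries over 14 alternatives, 4 moved, all after thinning, and 0 called values changed sign. Regions of the locus called higher numbered 4 to 8 with 1 library left out, against 7. The summed signal was 0.36 without the region 19.8 kb upstream, an alternative added after seeing the data, and 5 regions, not 8, were in the list without Nanog when peaks had to cover 50% of a region. The log2 fold change 19.8 kb upstream ran from 2.53 to 2.77. Over all regions, higher and lower calls were 4915 and 5120 with DESeq2, 4978 and 5503 at a mean count of at least 50, and 5299 and 5043 after thinning, with 4988 to 9288 and 4780 to 8971 when 1 library was left out, against 7997 and 8306. Leaving out library B with Nanog gave the lowest of both, 4988 and 4780, and leaving out A with Nanog gave 5045 lower. Flanking regions called higher, 14, became 9 with DESeq2, 7 at a mean count of at least 50, 9 after thinning, 5 within 500 kb and 8 to 13 with 1 library left out. Those called lower, 12, became 6 after thinning, 3 within 500 kb and 5 to 12 with 1 library left out. Over the 5 lists, 15 higher became 9 with DESeq2 and 7 to 14 with 1 library left out, and 15 lower became 9 after thinning and 9 to 18 with 1 library left out. Esrrb ran from -0.015 to 0.193 and Otx2 from -0.21 to 0.072 with 1 library left out, and Otx2 was at 0.065 after thinning. Thinning, the count minimum, the smaller window and the left-out libraries put fewer reads, regions or libraries into these counts. Calls over all regions nevertheless rose to 9288 higher and 8971 lower without library B without Nanog. Why a count changed was not tested for any alternative. A replicate block by column letter gave 9 higher and 0 lower regions at Foxd3, and 10095 and 10825 over all regions. No label says what a letter marks, so the letters were not taken as pairs. Same-letter deviations correlated at 0.08, 0.22 and 0.13. These values were not tested and do not decide whether letters mark pairs.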
